A study of Arabidopsis thaliana with 9 samples.

Results

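Transcript levels were described in siliques of wild type Arabidopsis thaliana, accession Columbia, taken 12 days past anthesis, that is, after flower opening. A silique is the pod of this plant, so each sample holds pod wall and developing seeds together. The 3 wild type libraries, WT-1, WT-2 and WT-3, were chosen by their labels out of 9 in the series. The labels call them biological replicates, and the plants carried no transgene and no treatment is named. They grew in a greenhouse with light between 4:00 and 20:00 clock time and temperatures of 16 to 22 °C. The libraries were made from polyadenylated RNA with stranded kits. The other 6 libraries, of an scl15 knockout and of plants with the napin promoter driving SCL15, were not used here. With 1 group of 3 libraries there is no contrast and no test. The levels, their order and their spread are descriptions.

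At this stage Arabidopsis embryos have passed pattern formation and fill with reserves. Seed storage proteins (the cruciferins or 12S globulins, and the 2S albumins or napins) are packed into vacuoles, and oil is packed into bodies coated with oleosins. The network of transcription factors around ABI3, FUS3, LEC1 and LEC2, together with bZIP partners and abscisic acid, drives this programme. Late embryogenesis abundant (LEA) proteins follow as the seed prepares to dry. The B3 domains of ABI3, FUS3 and LEC2 bind the RY element, whose core reads CATGCA, and bZIP factors bind G-boxes, which read CACGTG.

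The promoters of the 5 protein-coding genes of highest mean level are shown because they hold these letters in different combinations. Each is the stretch of 250 bases before the annotated start of the gene in RefSeq TAIR10.1, 5′ to 3′ on the strand of the gene. Capitals mark every RY core on either strand and every G-box.
SESA3 (chr4:13611546-13611795, plus strand): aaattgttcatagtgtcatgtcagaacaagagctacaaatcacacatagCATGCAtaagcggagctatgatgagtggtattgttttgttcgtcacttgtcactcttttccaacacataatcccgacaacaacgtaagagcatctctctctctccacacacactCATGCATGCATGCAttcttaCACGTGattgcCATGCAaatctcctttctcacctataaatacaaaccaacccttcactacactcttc
CRU3 (chr4:14087306-14087555, plus strand): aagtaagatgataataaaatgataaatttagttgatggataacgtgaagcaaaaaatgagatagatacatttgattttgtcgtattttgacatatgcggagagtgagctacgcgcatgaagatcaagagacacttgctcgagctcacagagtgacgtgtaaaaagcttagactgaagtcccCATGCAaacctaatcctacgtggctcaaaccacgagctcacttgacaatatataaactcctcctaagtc
SESA2 (chr4:13609091-13609340, plus strand): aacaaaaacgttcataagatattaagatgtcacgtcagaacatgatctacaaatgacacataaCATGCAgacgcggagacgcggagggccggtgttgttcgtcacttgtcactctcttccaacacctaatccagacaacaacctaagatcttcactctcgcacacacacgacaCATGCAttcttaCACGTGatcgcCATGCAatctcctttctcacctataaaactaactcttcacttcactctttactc
CRA1 (chr5:17758337-17758586, minus strand): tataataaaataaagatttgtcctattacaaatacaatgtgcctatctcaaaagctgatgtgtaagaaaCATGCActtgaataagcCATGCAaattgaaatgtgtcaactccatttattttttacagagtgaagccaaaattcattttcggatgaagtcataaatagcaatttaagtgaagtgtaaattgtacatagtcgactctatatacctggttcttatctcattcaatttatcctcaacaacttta
SESA1 (chr4:13607079-13607328, plus strand): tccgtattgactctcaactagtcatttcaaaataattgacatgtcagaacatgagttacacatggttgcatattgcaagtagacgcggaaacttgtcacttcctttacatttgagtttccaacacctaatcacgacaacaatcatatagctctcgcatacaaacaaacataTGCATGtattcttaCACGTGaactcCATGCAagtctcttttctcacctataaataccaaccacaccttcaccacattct

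Near the start, the 3 albumin promoters shared the order RY core, G-box, RY core. SESA3 held 7 RY cores, counted on both strands and allowing overlaps, and 5 of them lay in the alternating run whose first core began 87 bases before the start. Its G-box began 67 bases before the start. SESA2 had 3 RY cores and SESA1 had 2, and each had a G-box that began 65 bases before the start. CRU3 had 1 RY core and CRA1 had 2, and neither had a G-box in this stretch. A match is a description of the letters and not evidence of binding.

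The deposited values are TPM, that is, transcripts corrected for gene length and scaled so that every library has the same sum. Each library summed to 1000000 TPM over 33602 genes. A mean of at least 1 TPM was reached by 16544 genes (49.2%), at least 10 TPM by 7315, at least 100 TPM by 1008 and at least 1000 TPM by 69. In all 3 libraries 10917 genes (32.5%) were listed at 0. Between 20990 and 21469 genes were above 0 in a library, and 19926 were above 0 in every library. The number of reads is not given and TPM keeps no depth, so no counting interval is given and a gene listed at 0 was not detected at an unknown depth.

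The total was concentrated in few genes. The 10 genes of highest mean held 39.9% ± 0.575 of the total (SD, n = 3), the highest 100 held 57.3% ± 0.857, and 38 genes made up 50% of it. Among the top 10 were 4 albumin, 3 cruciferin and 1 oleosin gene, with 2 ribosomal RNA genes. In each library the same 9 of these filled all but 1 of its own 10 highest places, and 26 of the highest 30 and 87 of the highest 100 were shared by all 3 libraries. Ribosomal RNA genes took 10.03% ± 1.01 of the total, mostly through the nuclear gene AT3G41768 at 58293, 72572 and 64382 TPM. Chloroplast genes other than ribosomal RNA took 0.309% ± 0.00999 and mitochondrial ones 0.0238% ± 0.00211. The libraries were made from polyadenylated RNA, so these shares and that of ribosomal RNA need not be the shares in the tissue. Without ribosomal RNA and organelle genes, the highest 10 held 37.5% ± 1.31 of the nuclear total and 62 genes made up 50% of it.

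**Figure D1:**
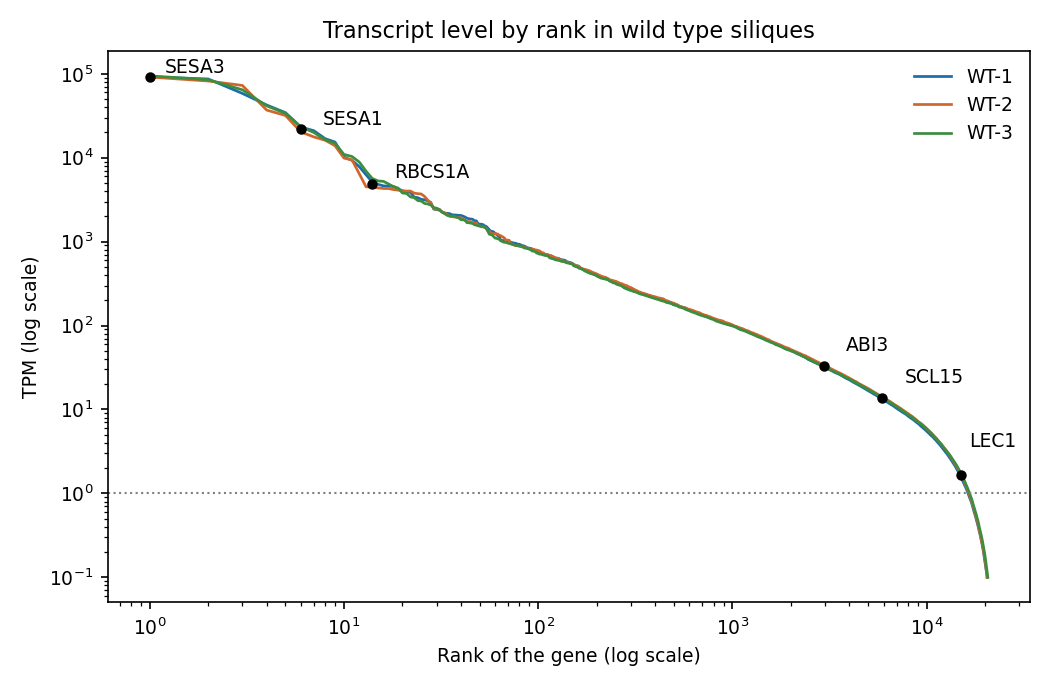
TPM of each gene (log scale) against its rank within a library (log scale), 1 line per library, values above 0.1 TPM; black points are the means of 6 named genes and the dotted line is 1 TPM. The 3 lines lie on each other, SESA3 leads at 92519 TPM, and the regulators ABI3 (32.8 TPM), SCL15 (13.8 TPM) and LEC1 (1.64 TPM) sit at ranks 2952, 5905 and 15090.

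Storage proteins led the transcriptome. The 13 genes of the cruciferin, albumin and vicilin-like lists held 32.0%, 30.2% and 31.8% of the total in WT-1, WT-2 and WT-3. The 5 albumin genes made up 17.5% ± 0.570, the 4 cruciferin genes 13.5% ± 0.452, and the 4 vicilin-like cupin genes 0.374% ± 0.0119. All 13 averaged above 100 TPM, and 11 were among the 100 genes of highest mean.

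SESA3, a 2S albumin of 1 exon on chromosome 4 at 13611796 to 13612563 of TAIR10.1, had 91702, 91387 and 94466 TPM. SESA2 had 42441, 36908 and 41454 TPM, SESA1 23140.0, 20285 and 23337 TPM and SESA4 16858, 16147 and 16324 TPM. These 4 albumin genes stand in a row within 6955 bases of chromosome 4 (13607329 to 13614283) and together held 17.1% of the total. SESA5, the member on chromosome 5, had 4033, 4003 and 3404 TPM. The order SESA3, SESA2, SESA1, SESA4, SESA5 was the same in every library, and no ranges overlapped. The transcripts of SESA1 to SESA4 are 78.4% to 85.6% identical in the pairs aligned, so reads shared between them could move a single value more than their sum.

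Among the 12S globulins, CRU3 had 86663, 81928 and 84889.7 TPM, CRA1 34384, 31817 and 33755 TPM, CRU2 15342, 13855 and 14849 TPM and AT1G03890, a gene next to CRU2 that encodes a cruciferin-like cupin, 2071, 1982 and 2025 TPM. WT-1 was highest and WT-2 lowest for each of the 4. The coefficient of variation (CV, the SD as a percentage of the mean) was 2.83% for CRU3 and 2.19% for AT1G03890. PAP85, a vicilin-like storage protein, averaged 1863 ± 53.1 TPM, AT2G28490 1179.6 ± 31.97 TPM, AT4G36700 597 ± 118.05 TPM and AT2G18540 103 ± 20.97 TPM (SD, n = 3). Chromosome 4 as a whole, which carries the SESA row, CRU3 and OLEO1, held 36.1% ± 0.815 of the total, against 9.25% to 18.1% for each of the other chromosomes.

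Genes for oil bodies came next, and all 10 listed members were above 100 TPM. OLEO1, the main structural protein of seed oil bodies, had 20956, 17664 and 19942 TPM, OLEO2 5117, 4463 and 4840.3 TPM, OLEO4 4805, 4289 and 4343 TPM, OLEO5 2436, 1787 and 2502 TPM and OLEO3 779.5, 570.2 and 882 TPM. WT-2 was lowest for each of these 5. The caleosin CLO1, a calcium-binding peroxygenase of the oil body, averaged 1195 ± 55.2 TPM and CLO2 229.8 ± 3.40 TPM. The steroleosin genes HSD1 and HSD1B went opposite ways over the libraries. HSD1 had 173, 318 and 838 TPM and HSD1B 1637, 1499 and 809 TPM. Their transcripts are 100% identical over 1549 aligned bases, and their sum was 1809, 1817 and 1648 TPM, a CV of 5.44% against 79.0% and 33.7% for the single genes. How reads shared by these genes were counted is not given in the sources used here, so the single values and the sum are uncertain.

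The machinery that makes the oil was at lower levels. The 30 listed genes of fatty acid and oil synthesis all exceeded 1 TPM, with a median of 53.9 TPM, and together took 0.421% ± 0.0466 of the total. The desaturases FAD2 and FAD3, which add the second and the third double bond to oil fatty acids, averaged 1499 ± 142 and 458 ± 35.7 TPM. FAE1, which elongates fatty acids, had 222, 145 and 231 TPM, and ACP1, an acyl carrier protein, 227, 186 and 298 TPM. FAB2, a stearoyl desaturase, averaged 235 ± 25.3 TPM and the plastid pyruvate dehydrogenase subunit PDH-E1 ALPHA 182 ± 28.9 TPM. The final acylation of oil was represented by DGAT1 at 16.99 ± 1.54 TPM, PDAT1 at 9.10 ± 0.596 TPM and DGAT3 at 297 ± 25.8 TPM. LPCAT2, an acyltransferase, was the lowest member at 6.97 ± 1.15 TPM.

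Proteins of the storage vacuole, where the storage proteins are cut and kept, were well represented. TIP3;2 and TIP3;1, water channels of the seed vacuole membrane, averaged 1346 ± 105 and 845 ± 62.9 TPM, and the aspartic protease APA1 774 ± 90.05 TPM. Among the vacuolar processing enzymes, GAMMA-VPE averaged 613 ± 49.8 TPM, BETA-VPE, the seed form, 232 ± 12.8 TPM, ALPHA-VPE 105 ± 27.7 TPM and DELTA-VPE, the seed coat form, 19.4 ± 6.29 TPM. VSR1, the receptor that sorts storage proteins to the vacuole, averaged 153 ± 6.77 TPM.

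LEA transcripts ranged over more than 3 orders of magnitude. Of 33 listed genes 31 reached 1 TPM, 21 reached 100 TPM, and the median was 132.6 TPM. The dehydrin RAB18 had 2406, 2881 and 1798 TPM, LEA76 1541, 1939 and 1195 TPM, and the dehydrin LEA 995, 1241 and 1095 TPM. AT3G17520 averaged 898 ± 143 TPM, AT4G21020 497 ± 107 TPM, EM1 457 ± 102 TPM and EM6 402 ± 88.3 TPM. COR15A, a cold-induced chloroplast LEA protein, was the lowest at 0.869, 0 and 0.871 TPM. RAB18, LEA76, EM1 and EM6 were each highest in WT-2 and lowest in WT-3, while LEA was lowest in WT-1. Other genes of desiccation protection included the catalase CAT3 at 1613 ± 97.2 TPM, the peroxiredoxin PER1 at 559 ± 32.3 TPM, CAT1 at 228 ± 25.1 TPM, CAT2 at 181 ± 19.98 TPM, TSPO at 105.5 ± 22.8 TPM and GOLS1, a galactinol synthase of raffinose synthesis, at 55.6 ± 11.8 TPM. RS5, a raffinose synthase, was lowest at 2.82 ± 0.256 TPM.

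**Figure D2:**
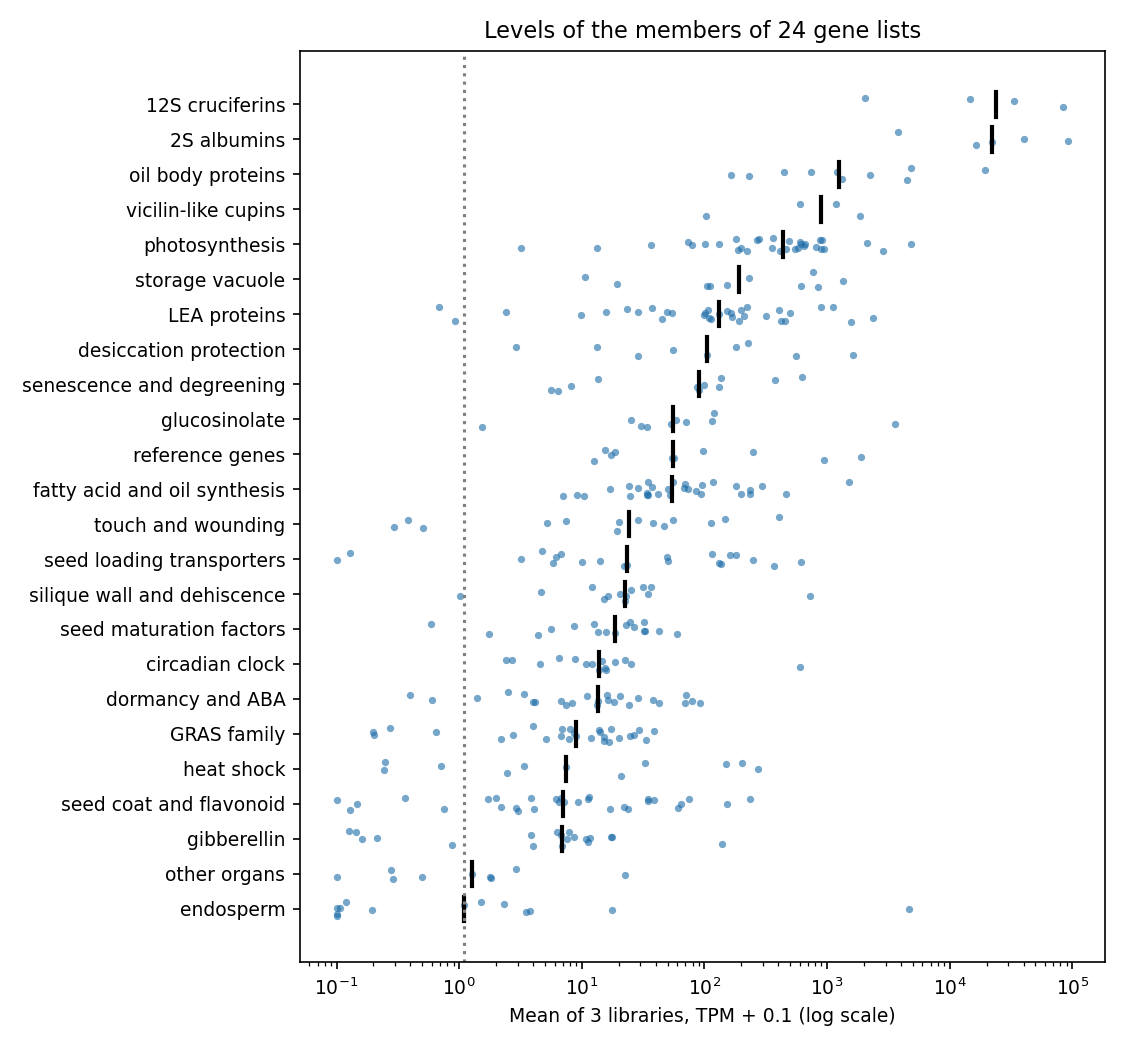
Mean TPM over 3 libraries plus 0.1 (log scale) for each member of 24 gene lists, ordered by list median (black bar); the dotted line is 1 TPM. The cruciferin and albumin medians (24000.4 and 22254 TPM) lie far right of the maturation factors (18.6 TPM) and of the endosperm list (1.01 TPM).

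The factors that control maturation were at far lower levels than the storage protein transcripts. Of 17 listed factors 16 reached 1 TPM, none reached 100 TPM, and their summed share was 0.0354% ± 0.00382. The bZIP factor EEL had 66.1, 45.0 and 68.2 TPM, bZIP67 38.1, 37.4 and 52.4 TPM, and the B3 factor ABI3 32.6, 31.98 and 33.8 TPM. L1L, a relative of LEC1 in the NF-Y complex, averaged 31.99 ± 10.4 TPM, bZIP10 31.9 ± 3.63 TPM and WRI1, the activator of fatty acid synthesis, 26.6 ± 3.32 TPM. ABI5 averaged 22.7 ± 4.23 TPM and FUS3 13.5 ± 3.89 TPM. The early acting members were lowest, LEC1 at 1.58, 1.09 and 2.24 TPM and LEC2 at 0.265, 0.580 and 0.636 TPM. ABI3 had a CV of 2.85%, against a median of 20.6% over the 16 members of at least 1 TPM, some of them at far lower levels. Over all genes of 10 to 50 TPM the median CV was 11.0% and the lower quartile 6.79%. The range of ABI3 did not overlap those of FUS3, LEC1 or LEC2.

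Among 1519 nuclear genes whose deposited description names a transcription factor or DNA-binding family, 807 reached 1 TPM, 25 reached 100 TPM, and the sum took 1.32% of the total. The highest was AT3G15510, described as a NAC domain protein, at 507, 646 and 478 TPM. The ethylene response factor RAP2-3 averaged 331 ± 35.6 TPM, the bHLH protein IBH1 201 ± 17.44 TPM, NFYC2, a subunit of NF-Y, 194 ± 48.8 TPM, and the zinc finger protein ZFP2 186 ± 12.04 TPM. RAP2-4 and RAP2-12 averaged 176 ± 32.2 and 149 ± 11.6 TPM and the NAC gene ANAC083 166 ± 28.4 TPM. AT2G30620 and AT1G06760, described only as winged-helix DNA-binding proteins, averaged 197 ± 13.5 and 171 ± 11.5 TPM. They were picked by the wording of that description alone, which need not mean a transcription factor. All 10 were above EEL, the highest listed maturation factor.

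SCL15, a GRAS family regulator and the gene the series was designed around, had 14.4, 16.2 and 10.7 TPM, a mean of 13.8 ± 2.78 TPM (SD, n = 3) and rank 5905. It was 5573rd in WT-1, 5340th in WT-2 and 7017th in WT-3. The neighbours in rank were SCL11, ACT3_1 (described as actin 1) and BLH3, a BEL1-like homeodomain gene, above it, and APT2, AT3G02220 and AT1G29060 below it, between 13.76 and 13.79 TPM. All 6 had ranges that overlapped its range. Within the 27 listed GRAS genes, of which 23 reached 1 TPM, SCL15 was the 12th. SCL13 led at 39.0 ± 5.56 TPM, followed by SCL30 at 33.4 ± 4.63 TPM, SCL7 at 29.2 ± 1.32 TPM, SCL5 at 26.6 ± 0.867 TPM, SCL8 at 24.7 ± 2.17 TPM and SCL14 at 20.003 ± 1.01 TPM. The ranges of 5 other members overlapped that of SCL15. SCL28 was the lowest at 0.0441, 0 and 0.247 TPM.

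The 5 DELLA genes, GRAS proteins that repress gibberellin responses, were all detected, with RGA at 17.3 ± 1.25 TPM, RGL1 at 8.55 ± 0.794 TPM, RGL2 at 7.83 ± 1.23 TPM, GAI at 6.62 ± 0.346 TPM and RGL3 at 3.89 ± 0.463 TPM. The gibberellin receptors GID1A, GID1B and GID1C averaged 11.7 ± 0.528, 7.48 ± 1.77 and 6.73 ± 1.77 TPM, and SLY1, the F-box protein that targets DELLA proteins, 17.7 ± 3.30 TPM. In gibberellin synthesis, GA20OX3 stood apart at 147, 104 and 168 TPM, while GA20OX2 averaged 11.1 ± 3.92 TPM and GA20OX1 was at 0.340, 0 and 0 TPM. The last step was represented by GA3OX1 at 10.7 ± 3.25 TPM and GA3OX4 at 3.78 ± 0.606 TPM. GA3OX3 averaged 0.0443 TPM and GA3OX2 0.0268 TPM. The inactivating enzyme GA2OX2 averaged 6.18 ± 0.676 TPM, and GA2OX4 0.0601 TPM.

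In the abscisic acid and dormancy list, 23 of 25 genes reached 1 TPM with a list median of 13.5 TPM. The protein phosphatases AHG3 and ABI1, which restrain abscisic acid signalling, averaged 91.7 ± 8.82 and 71.3 ± 10.4 TPM, and the kinase SNRK2.2 78.4 ± 0.450 TPM with a CV of 0.574%. DOG1, the main quantitative regulator of dormancy, had 37.1, 44.2 and 45.7 TPM. Of synthesis genes, ABA1 averaged 69.1 ± 5.83 TPM. Among the dioxygenases that commit carotenoids to the hormone, NCED2 averaged 16.1 ± 3.43 TPM, NCED6 13.5 ± 3.49 TPM, NCED9 7.27 ± 0.167 TPM, NCED3 6.66 ± 0.533 TPM and NCED5 0.495 ± 0.453 TPM. The degrading enzymes were low, CYP707A2 at 2.40 ± 0.186 TPM, CYP707A1 at 1.29 ± 0.160 TPM and CYP707A3 at 0.299 ± 0.229 TPM. The receptor PYR1 averaged 38.1 ± 6.06 TPM.

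Silique tissue other than the embryo was present in the same RNA. In bulk tissue, fewer cells of a type and less RNA per cell cannot be told apart. Of 13 silique wall and dehiscence genes 12 reached 1 TPM. ADPG1, a polygalacturonase of the opening pod, had 659, 929.5 and 572 TPM, far above its relative ADPG2 at 16.6, 26.9 and 17.9 TPM. Regulators of the pod margin followed, with ALC at 36.9 ± 3.16 TPM, SHP2 at 31.3 ± 4.11 TPM, FUL at 25.2 ± 4.45 TPM, RPL at 22.9 ± 0.589 TPM, SHP1 at 16.2 ± 4.26 TPM and IND at 15.1 ± 1.65 TPM. SEP3 averaged 34.4 ± 2.84 TPM and STK, an ovule and seed identity gene, 22.5 ± 0.304 TPM with a CV of 1.35%. NST3, a regulator of secondary walls, was lowest at 1.698, 0.591 and 0.454 TPM.

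Photosynthesis genes made up 2.17% ± 0.229 of the total, and all 32 listed members reached 1 TPM. RBCS1A, a small subunit of Rubisco, had 4578, 4169 and 5649 TPM, and the light-harvesting genes LHCB1.3 and LHCB1.5 3149, 2432 and 3041 TPM and 2181, 1966 and 2243 TPM. PSAG averaged 941 ± 82.4 TPM, LHCB2.1 913 ± 123 TPM and RCA, Rubisco activase, 884 ± 68.9 TPM. LHCB1.4, next to LHCB1.5 and 87.9% identical to it over 908 bases, was the lowest at 4.32, 1.77 and 3.19 TPM. Among LHCB and RBCS copies a single value can depend on how shared reads were assigned, which is not given in the sources used here.

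Genes of chlorophyll breakdown and senescence were detected beside them, with 11 of 11 members above 1 TPM and 4 at 100 TPM or more. SAG12, a cysteine protease widely used as a mark of late senescence, had 634, 721 and 504 TPM, and SAG13 357, 471 and 303 TPM. NYC1, SGR1, PPH and PAO, enzymes of the chlorophyll breakdown pathway, averaged 138 ± 14.02, 131 ± 20.4, 99.1 ± 10.5 and 87.1 ± 7.45 TPM. The regulators were lower, ORE1 at 13.5 ± 0.742 TPM and NAP, the lowest member, at 5.52 ± 0.347 TPM.

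Seed coat genes covered a wide range of levels. In the list of 30, 25 reached 1 TPM, 13 reached 10 TPM and the median was 6.88 TPM. SBT1.7, a subtilase of mucilage release, averaged 236 ± 29.4 TPM, TT10, the laccase that browns the seed coat, 153 ± 9.94 TPM, and the mucilage enzyme MUM2 64.0 ± 9.88 TPM. The early flavonoid enzymes CHS, CHI, F3H and TT7 averaged 74.1 ± 12.1, 34.6 ± 3.26, 34.5 ± 5.47 and 23.7 ± 3.04 TPM. The later enzymes were lower, DFR at 6.11 ± 1.64 TPM, LDOX at 3.99 ± 1.57 TPM and BAN, the entry to proanthocyanidins, at 0.649 ± 0.585 TPM. The regulators TT8 and TT2 averaged 7.11 ± 1.94 and 0.261 ± 0.188 TPM, TT16 was at 0, 0 and 0.137 TPM, and the transporter TT12 was listed at 0 in every library.

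Of 13 endosperm markers 7 reached 1 TPM. EPR1, a proline-rich extensin, had 6246, 4003 and 3751 TPM and carried almost the whole sum of that list. ICE1 averaged 17.63 ± 2.36 TPM, SUC5 3.71 ± 1.04 TPM, PHE1 3.38 ± 1.21 TPM, ZOU 2.21 ± 1.38 TPM and MEA 1.3998 ± 0.240 TPM. AGL62 averaged 0.0956 TPM and IKU2 0.00673 TPM, and FIS2, MINI3 and AGL36, which mark the young endosperm, were listed at 0. Of 9 genes that mark organs the samples should not hold, 5 reached 1 TPM and only the petal and stamen identity gene AP3 exceeded 10 TPM, at 20.8, 18.6 and 27.4 TPM. Its partner PI averaged 1.73 ± 0.324 TPM, the pollen genes VGD1 and VGDH1 2.81 ± 1.14 and 1.69 ± 0.435 TPM, AT3G07820 1.17 ± 0.531 TPM, and the root gene CASP1 was listed at 0.

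Genes that move nutrients into seeds were mostly detected, 19 of 21 at 1 TPM or more. The sucrose exporter SWEET11 had 625, 626 and 600.3 TPM, a CV of 2.36%. SWEET15 averaged 249 ± 23.3 TPM and SWEET12 182 ± 6.86 TPM, the amino acid permeases AAP2 and AAP1 371 ± 13.7 and 136 ± 19.03 TPM, and the seed ferritin FER2 161 ± 22.6 TPM. AAP8, an amino acid permease of young seeds, averaged 0.0297 TPM and NAS2, a nicotianamine synthase, was listed at 0. Of the glucosinolate genes, NSP5, a nitrile specifier protein, had 3858, 4105 and 2808 TPM, rank 24. GTR2 and GTR1, the carriers that bring glucosinolates into seeds, averaged 119 ± 18.19 and 58.2 ± 7.11 TPM, the myrosinases TGG2 and TGG1 116 ± 28.3 and 52.9 ± 9.26 TPM, and the regulator MYB28 71.0 ± 7.82 TPM against 1.43 ± 0.383 TPM for MYB29. NIT1 and NIT2, neighbouring nitrilases, both entered the highest 30, at 3313 ± 429 and 3280.0 ± 532 TPM.

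Other genes of the highest 30 are less known in seeds. AT1G62000 had 7799.6, 6416 and 8857 TPM and AT1G62080 4614, 3722 and 5282 TPM. Both are described as unknown proteins, both have 1 exon, and their transcripts are 94.5% identical over 705 bases. A relative, AT1G62225, chosen after its values were seen, averaged 982 ± 166 TPM. AT2G05580, a glycine-rich protein, averaged 4277 ± 421 TPM, AT1G62510, of the lipid transfer family, 3984 ± 562 TPM, XTH24, which remodels xyloglucan in walls, 3762 ± 618 TPM, the metallothionein MT2B 2908 ± 317 TPM, and AT5G59170, a proline-rich extensin-like protein, 2376 ± 502 TPM. Of the 29 pairs of neighbours in this ranking, 10 had ranges that did not overlap, and all 10 lay among the highest 13 places. From rank 13 on, every neighbouring pair of the highest 30 overlapped.

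The clock list, measured in tissue whose harvest hour is not given, had GRP7 at 605 ± 52.9 TPM, PRR5 at 25.3 ± 2.01 TPM, LNK1 at 22.4 ± 1.53 TPM, TOC1 at 18.5 ± 1.59 TPM, LUX at 15.6 ± 1.195 TPM and ELF4 at 15.4 ± 2.69 TPM. The evening factor TOC1 was above the morning factors CCA1 at 8.72 ± 1.96 TPM and LHY at 2.60 ± 0.819 TPM, with no overlap of ranges. RVE1 was lowest at 2.32 ± 0.472 TPM. In the touch and wounding list, the jasmonate repressor JAZ1 had 354, 516 and 346 TPM, ZAT10 averaged 146 ± 14.8 TPM, MYC2 113 ± 22.7 TPM, TCH3 55.3 ± 16.001 TPM, TCH2 46.7 ± 2.23 TPM and TCH4 37.9 ± 3.13 TPM, while the cold regulators CBF3, CBF2 and CBF1 stayed under 1 TPM in every library. Of the heat shock genes, HSP17.4 had 243, 364 and 205.8 TPM and HSP17.6A 196, 261 and 151 TPM, HSP70 averaged 149.5 ± 22.9 TPM, HSP90.1 32.9 ± 5.37 TPM, HSP101 20.8 ± 1.29 TPM and HSP17.6C 7.35 ± 2.53 TPM. HSFA9, a seed heat shock factor counted with the maturation factors, averaged 8.49 ± 3.06 TPM.

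Genes often used as references spanned 12.4 to 1901 TPM. UBQ10 averaged 1901 ± 219 TPM, the elongation factor gene AT5G60390 939.9 ± 100.5 TPM, GAPC1 249 ± 16.7 TPM, YLS8 97.1 ± 4.36 TPM, ACT8 56.3 ± 3.44 TPM and ACT2 54.2 ± 3.19 TPM. UBC21 was the lowest at 12.4 ± 2.29 TPM. Their median CV was 7.09%, against 10.6% for all 7315 genes of at least 10 TPM.

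Spread over libraries depended on level. The median CV was 21.8% for the 5859 genes of 1 to 5 TPM, 14.5% at 5 to 10 TPM, 11.0% at 10 to 50 TPM, 9.48% at 50 to 100 TPM and 9.70% at 100 to 500 TPM. It was 11.1% for the 160 genes of at least 500 TPM. In pairs of libraries, Pearson's r of log2(TPM + 1) across the 16544 genes was 0.979 to 0.986 and Spearman's rho 0.971 to 0.979, where genes share libraries and are not independent. Between 140 and 231 genes differed by 2-fold or more in a pair on that scale. WT-2 and WT-3 differed most, with 231.

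Among genes of at least 10 TPM the steadiest was RAD23D, which carries ubiquitinated proteins to the proteasome, at 195, 195 and 195 TPM. AT2G20820, ERF12, ALY1_2, HTA7, GAMMACA2, ALMT8, AT2G25310, AT2G48020 and LPP3 followed, with CVs between 0.142% and 0.514%.

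At the other end, only 7 of these 7315 genes had a CV of 50% or more. The nuclear ribosomal RNA gene AT3G41979 had 1393, 1469 and 6889 TPM, so WT-3 was 2.27 higher on the log2 scale than the mean of WT-1 and WT-2. AT2G01020, also a nuclear ribosomal RNA gene annotated at 164 bases, had 2078, 4032 and 5216 TPM, a CV of 42.0%. How reads were assigned to these 2 entries is not given in the sources used here, so their single values are uncertain. HSD1 had the next highest CV after AT3G41979 (above), then AT1G15405, an RNA with no coding description, at 8.35, 6.53 and 18.17 TPM. SAMDC1, a decarboxylase of polyamine synthesis, had 142, 242 and 77.8 TPM. CPuORF9, the entry for its conserved upstream reading frame, had 931, 826 and 884 TPM, a CV of 5.996% for this entry alone and 6.094% for the sum of both. AT1G25098 had 6.02, 8.96 and 16.5 TPM, GASA10, of the gibberellin-regulated family, 9.42, 6.77 and 17.9 TPM, and FAP3, a fatty acid binding protein of plastids, 14.04, 7.97 and 22.9 TPM. The next places were taken by AT5G01210, AT1G09750 and AT5G45430, at CVs of 49.4% to 46.6%. Entries for copies in the inverted repeat of the chloroplast genome had unequal deposited values. How reads shared by such copies were counted is not given in the sources used here, so the single values are uncertain. RRN16S.1 had 10189, 9877 and 10329 TPM and RRN16S.2 1902, 2433 and 2406 TPM, with a CV of 2.64% for the sum and 2.28% for RRN16S.1 alone. The sum of RRN23S.1 and RRN23S.2 had a CV of 11.9%, against 9.30% and 18.9% for the single entries.

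The libraries also differed in a patterned way by gene list. For each gene the deviation of a library from the mean of the 3 was taken on log2(TPM + 1). Over all 16544 genes the median deviations were -0.03 in WT-1, 0.04 in WT-2 and 0.00 in WT-3. WT-2 was the highest library for 44.1% of them and the lowest for 29.7%.

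LEA genes had medians of -0.04, 0.31 and -0.23 in WT-1, WT-2 and WT-3. WT-2 was highest for 25 of the 31 members of at least 1 TPM, and 19 followed the order WT-2, WT-1, WT-3, an order shared by 22.2% of all genes. Heat shock genes had medians of -0.04, 0.31 and -0.23, with WT-2 highest for 7 of 8. Senescence genes had -0.03, 0.17 and -0.13, with WT-2 highest for 9 of 11. Dormancy and abscisic acid genes had -0.07, 0.16 and -0.02, with WT-2 highest for 18 of 23. Touch and wounding genes had -0.14, 0.17 and -0.09, with WT-2 highest for 9 of 11. Clock genes had -0.11, 0.14 and -0.0007, with WT-2 highest for 11 of 15.

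The order of medians opposite to that of LEA genes held for fatty acid and oil synthesis, photosynthesis and maturation factor genes. Fatty acid and oil synthesis genes had medians of 0.05, -0.29 and 0.20, WT-2 was lowest for 24 of 30, and 20 followed the order WT-3, WT-1, WT-2, against 18.6% of all genes. Photosynthesis genes had 0.04, -0.18 and 0.12, with WT-2 lowest for 31 of 32 and 24 in that order. Maturation factors had -0.02, -0.15 and 0.19, with WT-3 highest for 11 of 16, against 34.0% of all genes. Storage proteins stayed near 0, with medians of 0.04, -0.04 and 0.02, although WT-2 was lowest for 10 of 13. Silique wall markers had medians of -0.10, 0.10 and -0.04 and endosperm markers 0.10, -0.22 and 0.12. The endosperm medians depended on the members used, since WT-2 was at -0.0096 with all members and WT-3 at -0.080 with members of at least 5 TPM. The summed level of the 13 silique wall markers was 885, 1191 and 811 TPM, mostly ADPG1, and 7 of 12 were highest in WT-2. Their part in the pattern of the other lists was not tested.

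**Figure D3:**
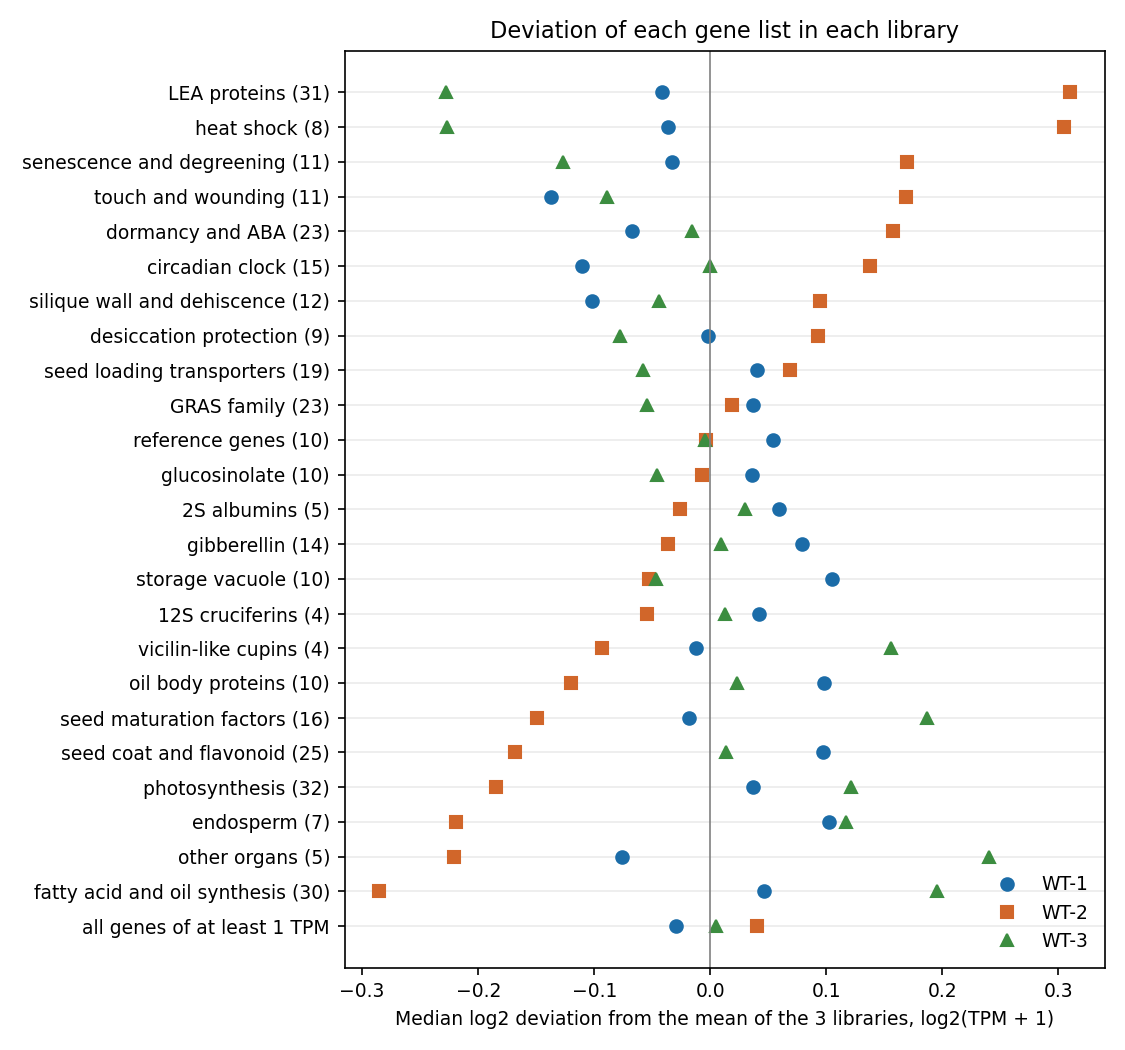
Median log2 deviation of each gene list in WT-1 (circles), WT-2 (squares) and WT-3 (triangles) from the mean of the 3 libraries, with the number of members of at least 1 TPM in parentheses and all genes in the lowest row. LEA and heat shock genes lie furthest right in WT-2 (0.31 each) and fatty acid and oil synthesis genes furthest left (-0.29).

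Single genes far from the other libraries followed these orders and others. In WT-2, the defence gene PR1 had 32.5, 64.9 and 31.2 TPM and MYB75, an activator of anthocyanin synthesis, 66.1, 107 and 52.6 TPM, WT-2 being highest for each. ACP5, an acyl carrier protein, had 53.1, 33.3 and 81.1 TPM and the germin-like gene GLP8 14.1, 5.22 and 14.3 TPM, WT-2 being lowest for each. In WT-3, the lipid transfer gene AT5G38160 had 519, 440.0 and 898 TPM and its neighbour AT5G38170 142, 113 and 241 TPM, both highest there, while AT5G01210, an acyltransferase, was lowest there at 16.4, 15.5 and 5.35 TPM. In WT-1, EPR1 was highest, 0.69 above the other libraries on the log2 scale, and KRP1, an inhibitor of cell cycle kinases, was lowest at 12.3, 27.98 and 19.99 TPM.

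Gene structure and promoter letters were set against level for 26710 nuclear protein-coding genes found in the RefSeq TAIR10.1 annotation. The 100 of highest mean had a median coding length of 801 bases and 28% had a single exon, against 1065 bases and 20.4% over all. The next 900 by level had a median of 798 bases and 20.1% had a single exon. The 8964 genes of 1 to 10 TPM had a median of 1242 bases and 14.1% had a single exon. Genes above 0 but under 1 TPM had 1197 bases and 24.6%. Genes listed at 0 had the shortest median, 675 bases, and the largest share with a single exon, 34.6%. Short coding length and a single exon were therefore not particular to high levels. Of the 100, 12 stood in 5 groups of near neighbours, at most 3 annotated genes apart. No such count over all genes is given, so it is not read as clustering. The SESA row was the largest group. The others were CRU2 with AT1G03890, NIT1 with NIT2, VSP1 with VSP2, vegetative storage proteins at 741 ± 148 and 2175 ± 432 TPM, and the aleurain-like protease gene ALEU with the elongation factor gene AT5G60390.

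The motifs were counted on both strands in 300 bases, 250 before and 50 after the gene start. CATGCA matches can overlap each other by 2 or 4 bases, and CACGTG reads the same on both strands. An RY core was present in 9.78% of all promoters and in 32% of the 100 genes of highest mean. It was in 11 of 13 storage protein promoters and 10 of 10 oil body promoters. These sets overlap with the highest 100, which include 11 storage protein genes, CRU2 among them, and 7 oil body genes. All 5 SESA promoters had at least 2 RY cores and a G-box. At least 1 of each was found together in 0.865% of all promoters. No cruciferin promoter had a G-box, and CRU2 had neither. LEA promoters had a G-box in 20 of 33, against 7.79% of all promoters, and an RY core in 9 of 33. An RY core was also in 7 of 19 gibberellin, 4 of 13 endosperm and 4 of 13 silique wall promoters. It was in 4 of 9 promoters of the genes that mark other organs. Touch and wounding promoters had it in 1 of 14 and reference gene promoters in 0 of 10. Fatty acid and oil synthesis promoters had an RY core in 6 of 30 and a G-box in 3 of 30, and clock promoters a G-box in 10 of 15 and no RY core. In the 250 bases before the gene start alone, 6 of 15 clock promoters had a G-box. The share with a G-box went down with level, 21%, 15.3%, 10.6%, 8.28%, 6.39% and 3.42% from the highest 100 genes to those listed at 0. The share with an RY core was lowest at 8.22% in genes of 10 TPM and over outside the highest 1000 and was 11.8% among genes listed at 0.

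**Figure D4:**
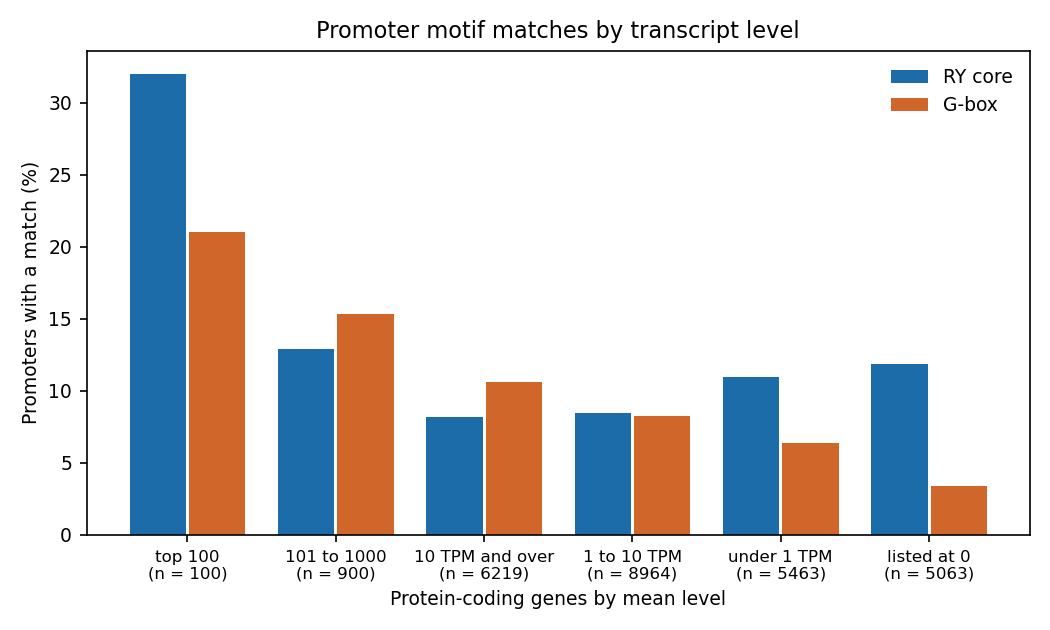
Share of promoters (%) with an RY core (blue) or a G-box (orange) in 300 bases around the gene start, for protein-coding genes in 6 ranges of mean level, with the number of promoters below each pair of bars. The RY bar is 32% in the highest 100 genes and 8.22% to 12.9% elsewhere, while the G-box bars go down from 21% to 3.42%.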

How the data were processed

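Stranded RNA-seq libraries of polyadenylated RNA were made from wild type siliques, per the labels' protocols. The authors deposited TPM per gene, 1 column per library, per the file headers, and used genome TAIR 10, per the submitters' processing notes. Which aligner and counter made them, and with what strand use and depth, is not given in the sources used here. TPM were kept as they are. Each library sums to 1000000 TPM with ribosomal RNA and organelle genes included, so a change of the most abundant transcripts shifts all others.

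Means, SD, CV and ranks were computed with Python 3.11.15, pandas 2.3.3 and numpy 2.4.6. Deviations used log2(TPM + 1) and genes of at least 1 TPM mean. Calculations were tested on simulated data. Transcripts were aligned with Biopython 1.88 (local alignment), and figures drawn with matplotlib 3.10.9. Of 33602 deposited genes, 97.7% were found in RefSeq TAIR10.1, whose nuclear chromosomes have the TAIR10 lengths. Single values of near-identical, overlapping and antisense genes are uncertain.

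The 24 gene lists (382 memberships) and the rules were chosen with earlier results of these data known. Named genes were the 30 highest, up to 6 highest members of each list and the lowest where members lay under 1 TPM. SCL15 with 3 genes either side was named, and the 10 highest genes described as transcription factors or DNA-binding. So were the 10 lowest and 10 highest CVs at 10 TPM or more, and genes furthest from the other libraries. Some further list members, copies and neighbours were added after their values were seen. Alternatives were leaving out each library, other scalings, filters, a pseudocount of 0.1 TPM, the median, and the 250 bases before the gene start alone.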

Additional observations from a re-analysis of the deposited data

How the results depend on the processing

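No paired analysis was possible because only wild type libraries were used and no groups were compared. Of 577 recomputed values, 544 stayed within the spread of the libraries or, for counts, within 1.5 times. Many of these could not move. Median-ratio scaling leaves shares of the total unchanged. The share of a list stays within the spread by construction when 1 library is left out or the median is used. The directions of the LEA, heat shock, photosynthesis and fatty acid lists in WT-2 held under every scaling, filter and pseudocount tried. A threshold of 5 TPM left 10685 genes in place of 16544. After rescaling without ribosomal RNA and organelle genes, the highest 10 genes held 37.5%, the highest 100 held 53.5%, storage proteins 34.98%, oil body proteins 3.92% and photosynthesis 2.42% of the total, by construction of the smaller total. The median CV was 14.2% as reported, 10.2% to 12.9% without 1 library (lowest without WT-2), 19.0% with no filter and 10.6% at 10 TPM or more. The endosperm deviation in WT-3 was 0.12 as reported and -0.080 for members of at least 5 TPM, where 2 genes were left. The mean of SCL15 was 12.6 to 15.3 TPM and its rank 5464 to 6224 without 1 library. The 32 values that moved include 18 from that rescaling. Depth is unknown, so low levels carry no counting error here.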

Other observations

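Classes of genes outside the lists also separated by level. Of 3899 transposable element genes 46 reached 1 TPM and 3652 were listed at 0 in every library. None of 630 pre-tRNA genes was above 0, but in libraries of polyadenylated RNA this need not mean absence from the tissue. Of 364 genes described as ribosomal proteins 309 reached 1 TPM, and their sum was 1.61% ± 0.102 of the total (SD, n = 3). Genes described as histones reached 1 TPM in 44 of 50 cases and took 0.236% ± 0.00779. Of 640 F-box genes 112 reached 1 TPM and their sum was 0.108% ± 0.00188, while 118 of 307 pentatricopeptide repeat genes did. Defensin-like genes, many of which are known from reproductive tissue, reached 1 TPM in 8 of 135 cases. Genes described as unknown proteins took 4.55% ± 0.180 of the total, of which AT1G62000 and AT1G62080 together averaged 12230.0 TPM. Extensin and hydroxyproline-rich genes took 1.71%, 1.26% and 1.42% in WT-1, WT-2 and WT-3, with EPR1 at 6246, 4003 and 3751 TPM. Lipid transfer genes took 1.18% ± 0.0687 and papain-type cysteine proteases 0.663% ± 0.0685. The antisense entry AT2G19572 had 94.6, 44.0 and 46.0 TPM, and CDA1, the cytidine deaminase gene it overlaps, had 598, 736 and 603 TPM.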
